A study of Mus musculus with 2 samples.

Results

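Arterial endothelial cells of the mouse lung were described here from 57 cells, 30 in the library of wild-type (WT) mice and 27 in the library labelled Plaur KO, out of 19951 cells kept in all and 3623 endothelial cells. The members were chosen by their own transcripts. A cell needed 500 detected genes or more and no more than 15% of its UMIs (unique molecular identifiers, which count captured RNA molecules) from mitochondrial genes. It had to show at least 2 of the 6 pan-endothelial genes Cldn5, Cdh5, Ptprb, Calcrl, Ramp2 and Pecam1, and at least 3 of the 6 arterial genes Gja5, Gja4, Bmx, Dkk2, Sox17 and Hey1. At most 2 of the 6 venous genes Vwf, Slc6a2, Selp, Ackr1, Bst1 and Prss23 and at most 1 of the 5 genes Lamp3, Slc34a2, Dcn, Col1a2 and Ptprc of other cell types were allowed. Values of these genes in the members therefore describe the choice and are no finding.

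The cells came from lungs of C57B6/J mice, either WT or carrying the label Plaur KO; Plaur encodes uPAR, the cell-surface receptor of urokinase. Both genotypes received lipopolysaccharide with ovalbumin on day 0 and again on day 7, then inhaled ovalbumin aerosol on day 14, so no unchallenged group enters any comparison. CD45.2-negative cells were sorted from digested lung, which leaves out most leukocytes, and each genotype gave 1 droplet library read from the 3' end. The study had 8 mice per genotype, how many were pooled in each library is not stated, and the labels give no age. The deletion is described only by its gene name, with no cell type or promoter driving it.

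With 1 library per genotype no difference has a replicate check, and no test or p-value is given. Every interval below is an exact 95% interval that covers counting error only. Levels are given as CPM (counts of a gene per 10 to the power of 6 UMIs of the class in that library). A log2 ratio above 0 means a higher CPM in the KO-labelled library. The second library is called KO-labelled because Plaur mRNA was counted in it.

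Arterial endothelium lines the vessels that carry blood from the heart towards the capillary bed, and in the lung this includes the pulmonary arteries and the small bronchial arteries. Its fate is set and kept by Notch signalling, by SoxF transcription factors such as Sox17 and by blood flow. The connexins Gja4 and Gja5 couple neighbouring arterial cells through gap junctions, the kinase Bmx and the ephrin Efnb2 mark arteries from development on, and the cells contribute to the elastic wall beneath them.

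The kept libraries held 10842 and 9109 cells with medians of 4997 and 5570 UMIs per cell. Arterial cells were shallower, with a median of 1743.5 UMIs in the WT library (787 to 4616) and 1662 in the KO-labelled library (704 to 9335), and with 63661 and 65067 UMIs in all. One UMI was thus worth 15.7 and 15.4 CPM. The libraries shared 30 barcodes, none of them in a member. Epithelial transcripts in arterial cells differed between the libraries. Scgb1a1, a secretory airway gene, had a UMI in 30 of 30 WT and 8 of 27 KO-labelled arterial cells (1634 against 307 CPM), and Sftpc, an alveolar gene, stood at 471 against 1091 CPM. No immune marker of 9 (Tyrobp, Fcer1g, S100a8, S100a9, Csf3r, Cd3e, Cd79a, Nkg7 and Cd68) and no mesothelial marker of 5 had a UMI in any member, and Prox1, Mmrn1, Ccl21a, Reln and Pdpn of the lymphatic list stood at 0 in both libraries. Summed UMIs in WT and KO-labelled members were 17 and 80 for 8 smooth muscle markers, 2 and 20 for 6 fibroblast markers, 51 and 105 for 9 AT2 markers, 110 and 24 for 6 airway secretory markers and 138 and 66 for the 6 venous genes.

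Arterial cells made up 1.35% of endothelial cells in the WT library (95% Clopper-Pearson interval 0.912 to 1.92) and 1.93% in the KO-labelled library (1.27 to 2.79). The intervals overlap. As a share of all kept cells the values were 0.277% and 0.296%. The share depends on depth, since 3 transcripts had to be seen: after every cell was thinned to 700 UMIs, 3 of 2143 WT and 4 of 1364 KO-labelled endothelial cells still met the rule. Of the 57 members, 53 carried exactly 3 of the 6 arterial genes and 4 carried 4 of them. Just outside the threshold stood 365 cells with 2 of the 6 genes, 212 and 153 by library, whose summed level of the 6 genes was 1624 and 1686 CPM against 2058 and 1691 CPM in the members. The venous limit removed 3 cells and the limit on other cell types removed 6. All 6 pan-endothelial genes were seen in 41 of the 57 cells.

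The 6 arterial rule genes differed in how far other endothelial classes carried them, which is given as a description because they chose the members. Gja5 (chromosome 3, 96904693 to 97077416, plus strand, GRCm38) was counted at 236 and 200 CPM, Bmx at 346 and 138 CPM and Dkk2, a secreted Wnt antagonist, at 126 and 61.5 CPM in WT and KO-labelled arterial cells. In venous-like, general capillary-like and aerocyte-like cells these genes stayed at or below 20.5 CPM. Gja4 (644 and 538 CPM), Sox17 (408 and 353 CPM) and Hey1 (298 and 400 CPM), a Notch target, were not confined to arterial cells. General capillary-like cells, which form the common capillary lining, held Gja4 in 203 of 909 WT cells and 127 of 573 KO-labelled cells, Sox17 in 177 and 130 cells and Hey1 in 79 and 36 cells. After thinning to 700 UMIs the Gja4 shares in these capillary cells were 14.1% and 14.3%. In AT2-like cells, alveolar epithelium that should lack endothelial genes, Gja4 had a UMI in 6 of 3687 and 3 of 5670 cells at medians of 6445 and 6184 UMIs per cell.

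The members can be divided by which rule genes they carried. Gja5, Bmx or Dkk2 was present in 34 cells, 20 WT and 14 KO-labelled, while the other 23 cells, 10 WT and 13 KO-labelled, carried Gja4, Sox17 and Hey1 and none of these 3, called strict genes below. The first kind was 66.7% of WT members (47.2 to 82.7) and 51.9% of KO-labelled members (31.9 to 71.3), again with overlapping intervals. General capillary markers, which the rule did not use (Gpihbp1, Plvap, Kit, Aplnr, Glp1r and Sema3c), differed between the kinds. At least 3 of the 6 were seen in 18 of the 23 cells with Gja4, Sox17 and Hey1 only and in 12 of the 34 others, of which 19 showed 0 or 1. Venous genes, which the rule limits, went the other way: at least 1 was seen in 26 of the 34 cells and in 3 of the 23. Median depth was similar, 1743.5 UMIs in the first kind and 1608 in the second.

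**Figure D1:**
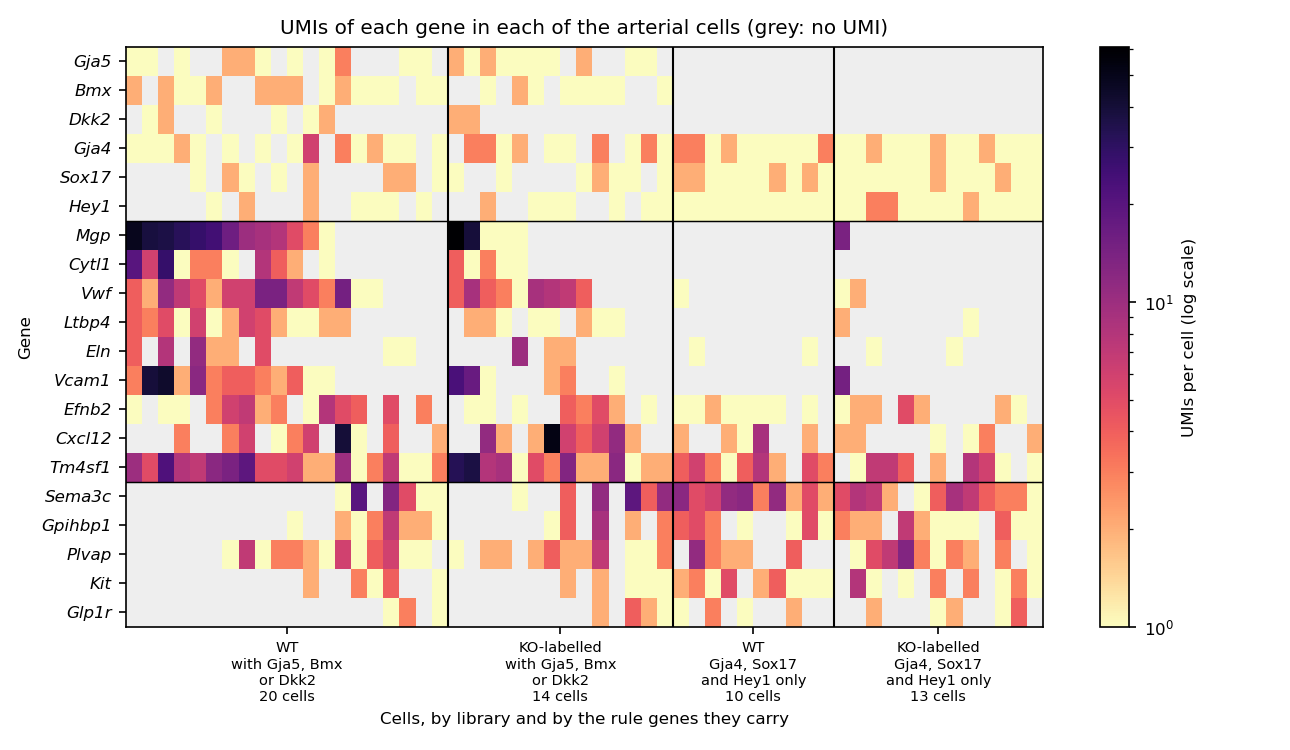
UMIs of 20 genes (vertical axis) in each of the 57 cells (horizontal axis), grouped by library and by the rule genes carried; grey means no UMI and the colour scale is logarithmic. Mgp, Cytl1, Vwf and Vcam1 fill the left of the 20 WT cells with Gja5, Bmx or Dkk2 and are nearly empty in the 10 WT cells with Gja4, Sox17 and Hey1 only, where Sema3c is present in all 10.

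Among genes outside the rule, Sema3c, which encodes a secreted guidance protein, was at 3582 and 2082 CPM in the cells with Gja4, Sox17 and Hey1 only and at 923 and 1278 CPM in those with a strict gene. Kit, a receptor tyrosine kinase of general capillary cells, was at 1038 and 810 CPM against 248 and 179 CPM. Gpihbp1, which carries lipoprotein lipase to the capillary lumen, was at 1038 and 964 CPM against 428 and 486 CPM. Mgp and Cytl1 went the other way. Mgp (matrix Gla protein, an inhibitor of vessel calcification; chromosome 6, 136872435 to 136875823, minus strand) had 259 and 103 UMIs in cells with a strict gene and 0 and 14 UMIs in the others, the 14 from 1 cell. Cytl1, a small secreted protein, had 77 and 10 UMIs against none in either library. Mgp or Cytl1 and Sema3c were rarely seen together. Of the 57 cells, 19 carried Mgp or Cytl1, 34 carried Sema3c, 2 carried both and 6 carried neither.

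**Figure D2:**
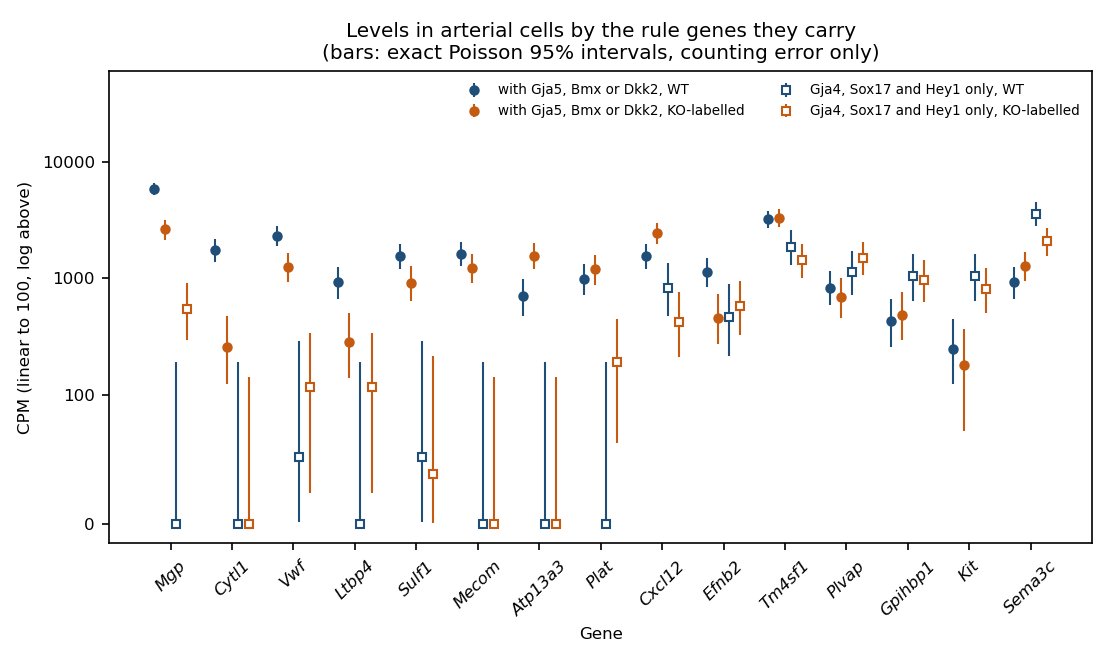
CPM (vertical axis, linear to 100 and logarithmic above) of 15 genes (horizontal axis) in cells with Gja5, Bmx or Dkk2 (filled circles) and in cells with Gja4, Sox17 and Hey1 only (open squares), WT in blue and KO-labelled in orange, with exact Poisson 95% intervals. Mecom and Atp13a3 have no UMI in the second kind, while Kit and Sema3c are higher there.

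Endothelial cells were also clustered by variable genes. A cluster of 109 cells, 70 WT and 39 KO-labelled, held 22 members, of which 21 carried a strict gene. Clusters dominated by general capillary-like cells held 31 members, 20 of them with Gja4, Sox17 and Hey1 only and 11 with a strict gene. The arterial label therefore goes against the markers of most of the 23 cells and of some of the 34. The 57 cells are called arterial-rule cells below, after the rule that chose them.

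Genes outside the rule that stood highest in arterial-rule cells over the other endothelial classes in both libraries were ranked on CPM with 10 added. This is a description, since the classes were cut from the same cells. Plat, the gene of tissue plasminogen activator, came first. It had 44 UMIs in 13 of 30 WT cells and 52 UMIs in 11 of 27 KO-labelled cells, 691 and 799 CPM. The next class, general capillary-like cells, had 29.8 and 58.3 CPM, and AT2-like cells had a Plat UMI in 15 of 3687 and 5 of 5670 cells. After thinning to 700 UMIs Plat remained in 9 of 30 and 8 of 27 arterial-rule cells against 1.66% and 4.23% of general capillary-like cells. Nearly all of it came from cells with a strict gene, 991 and 1201 CPM, against 0 UMIs in the 10 WT and 5 UMIs in the 13 KO-labelled cells without one. Plat stood at 279 and 472 CPM in cells with at most 1 venous gene, at 157 and 262 CPM in cells with at least 2 of the 6 arterial genes and at 476 CPM in the KO-labelled library without its highest cell.

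The rest of this ranking held secreted, signalling and regulatory genes. Atp13a3, a polyamine transporter, stood at 487 and 937 CPM (next class 42.1 and 28.6 CPM). Sulf1, an enzyme that trims heparan sulfate, stood at 1100 and 569 CPM (109 and 47.8 CPM). Mecom, a transcription factor, stood at 1131 and 738 CPM (252 and 147 CPM in venous-like cells), with 72 and 48 UMIs that all lay in cells with a strict gene. AT2-like cells had Mecom at 909 and 788 CPM, so its level in arterial-rule cells was above theirs in the WT library and below it in the KO-labelled library. Cxcl12, the ligand of Cxcr4, stood at 1335 and 1644 CPM (374 and 399 CPM in general capillary-like cells). It was concentrated, with 40 of 85 and 52 of 107 UMIs in 1 cell of each library. Stk32a (251 and 184 CPM), Efna5 (204 and 338 CPM) and Fbln2 (283 and 92.2 CPM), an elastic-fibre protein, also led. The other 7 of the 15 were Sfrp1, Arhgap24, Prkg1, Cdh13, Arhgap42, Aggf1 and Thsd7a.

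**Figure D3:**
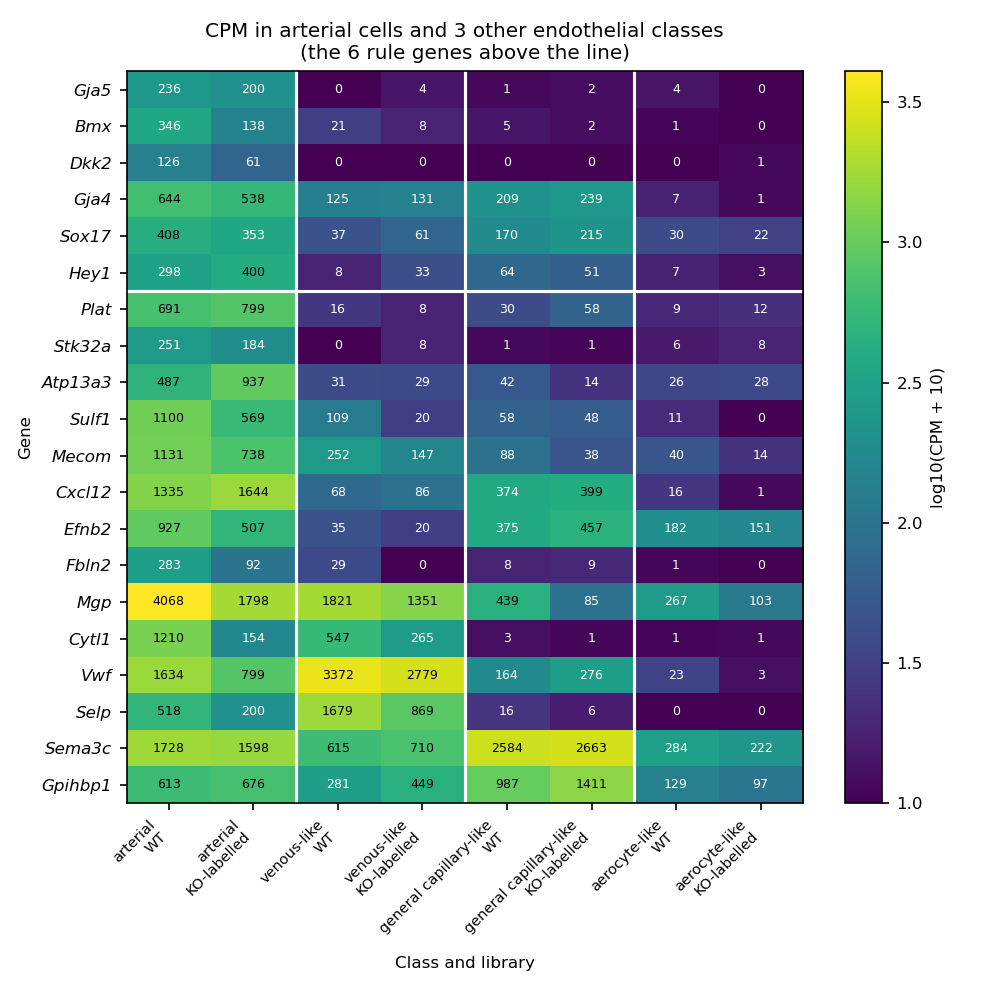
CPM of 20 genes (vertical axis) in arterial-rule, venous-like, general capillary-like and aerocyte-like cells of each library (horizontal axis), with the value printed in each cell and the colour on the log10(CPM + 10) scale. Gja5, Bmx, Dkk2 and Plat stand out in the arterial columns, Gja4, Sox17, Hey1 and Cxcl12 are shared with general capillary-like cells, and Mgp, Cytl1, Vwf and Selp are shared with venous-like cells.

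Several genes often listed for arteries were shared with veins here. Mgp was at 4068 and 1798 CPM in arterial-rule and at 1821 and 1351 CPM in venous-like cells. Cytl1 was at 1210 and 154 CPM against 547 and 265 CPM, and near 0 in capillary classes. Efnb2, the arterial ephrin, was at 927 and 507 CPM in arterial-rule cells, 34.9 and 20.4 CPM in venous-like and 375 and 457 CPM in general capillary-like cells. Both kinds of member carried it, at 814 CPM with and 531 CPM without a strict gene over both libraries. Of the venous genes the rule tolerated, Vwf and Selp were seen and Slc6a2, Ackr1 and Bst1 stood at 0. Rbp7, a lipid carrier often found in arterial capillaries, had 1 UMI in all. Smooth muscle-like cells, which surround arteries, had Mgp at 5109 and 3079 CPM and Eln at 1344 and 2315 CPM but no Cytl1 UMI in 45 and 16 cells. Of the 13 WT cells with Mgp, 11 showed 0 of the 8 smooth muscle markers and held 195 of the 259 UMIs. Of the 6 KO-labelled cells with Mgp, 4 showed none and held 77 of 117 UMIs.

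The genotype labels set up a comparison of the libraries, and the targeted gene comes first. Plaur (chromosome 7, 24462484 to 24475968, plus strand) had 3 UMIs in 3 of 30 WT cells and 6 UMIs in 4 of 27 KO-labelled cells, 47.1 and 92.2 CPM (log2 ratio 0.97, -1.26 to 3.60). The interval spans 0, and a 3' tag says nothing of a deletion elsewhere in the gene. Across the 57 cells 10454 genes had a UMI and 786 had at least 30 UMIs over both libraries. Of these, 40 (5.09%) were more than 2-fold higher and 44 (5.6%) more than 2-fold lower in the KO-labelled library, around a median log2 ratio of -0.03. Gene lists were read against these shares, each by its members with 30 UMIs or more.

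Before the results, 1 KO-labelled cell has to be set apart. It held 9335 UMIs, 14.3% of that library's arterial total, and showed 5 of 8 smooth muscle, 5 of 7 ciliated and 3 of 6 airway secretory markers. It carried 28 of 28 UMIs of Acta2 and 42 of 43 of Tagln, both contractile genes of smooth muscle, 17 of 33 of Tubb4b, a tubulin, and 74 of 94 of Hsp90aa1. Scrublet marked neither it nor any other member as a doublet. Without it the smooth muscle markers Acta2 and Myh11 stood at 0 in KO-labelled arterial-rule cells. Without it 716 genes had 30 UMIs, of which 36 (5.03%) were past 2-fold higher and 41 (5.73%) lower. The search for markers of other types did not use the fibroblast list. A KO-labelled cell of 4715 UMIs had the highest fibroblast marker level of that library's members, 2969 CPM. It stays in every value without the mixed cell and held 36 Gsn, 20 Gbp5, 18 Thbs1, 17 Cxcl10 and 14 Mgp UMIs. Whether it is mixed too was not tested.

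Vessel wall genes were lower in the KO-labelled library. Of 18 arterial genes outside the rule 9 were measured, and 5 of the 9 (Cytl1, Ltbp4, Clu, Eln and Mgp) were more than 2-fold lower and none higher, with a list median of -1.18. Of 20 elastic matrix genes 8 were measured, with a median of -1.06, 4 past 2-fold lower (Bgn, Ltbp4, Eln and Mgp) and none higher. These lists share Mgp, Eln and Ltbp4, so they are not separate evidence. Without the mixed cell the medians were -0.98 and -1.11, with 4 genes lower in each list and Col4a2 past 2-fold higher (1.02, 0.15 to 1.94). The result turned on the venous and arterial limits of the rule. In the 242 WT and 180 KO-labelled cells with at least 2 of the 6 arterial genes the arterial median was 0.0931 and Mgp stood at 0.0486, and with at most 1 venous gene the elastic median was 0.48.

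The same genes cell by cell show where the difference lay. Mgp was present in 13 of 30 WT cells, with up to 48 UMIs, and in 6 of 27 KO-labelled cells, with up to 61 UMIs, in 1 cell, and 39 in the mixed one. Its log2 ratio was -1.18 (-1.51 to -0.86), and -1.54 without the mixed cell. The 6 KO-labelled cells held 61, 39, 14, 1, 1 and 1 UMIs. The median per carrying cell was 16 UMIs in the WT and 7.5 in the KO-labelled library and the means 19.9 and 19.5, the latter 15.6 without the mixed cell, and the ranges overlapped. Most WT Mgp UMIs lay in cells that also carried Selp, a venous gene that the rule limits. The WT cells with Mgp and no Selp held 10, 3 and 1 Mgp UMIs, and the KO-labelled ones 14, 1 and 1. Mgp was lower in the KO-labelled library in the other endothelial classes too, at -0.43 (-0.62 to -0.25) in venous-like, -1.38 (-1.77 to -1.01) in aerocyte-like and -2.37 (-2.73 to -2.02) in general capillary-like cells.

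Cytl1 differed more. It had 77 UMIs in 11 WT cells (highest 28) and 10 UMIs in 5 KO-labelled cells (highest 4), a log2 ratio of -2.98 (-4.09 to -2.02), or -2.90 without the mixed cell. Within cells with a strict gene the ratio was -2.76 (-3.88 to -1.81). This difference lay in cells that also carried Selp. Without Selp, Cytl1 was seen with 1 UMI in 1 WT cell and with 3 and 1 UMIs in KO-labelled cells. Venous-like cells of the same libraries had a ratio of -1.05 (-1.46 to -0.65), on the same side of 0.

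The remaining wall genes rested on fewer UMIs. Ltbp4, which binds latent TGF-beta in elastic fibres, had 41 UMIs in 14 WT cells and 14 UMIs in 10 KO-labelled cells (-1.58, -2.57 to -0.68). Eln, tropoelastin itself, had 36 UMIs in 10 cells and 16 in 5 (-1.20, -2.15 to -0.32). Bgn, the small proteoglycan biglycan, had 28 UMIs in 8 cells and 5 in 2 (-2.52, -4.25 to -1.13). Clu, the extracellular chaperone clusterin, had 29 UMIs in 9 cells and 12 in 4, 9 of them in the mixed cell (-1.30, -2.41 to -0.29). Without that cell Clu stood at -3.08 (-5.44 to -1.39) and Eln, no longer past 2-fold, at -0.98 (-1.93 to -0.09). Each of the 4 genes was present in fewer KO-labelled than WT cells. In the other endothelial classes Ltbp4 and Bgn were below 0 throughout. Eln was above 0 in venous-like cells alone (0.16, -0.21 to 0.52) and Clu in aerocyte-like cells alone (0.35, 0.19 to 0.51). The 12 elastic matrix genes under 30 UMIs summed to 73 and 53 UMIs, with 6 lower and 6 higher in the KO-labelled library by UMIs. Fbln5 (17 and 4 UMIs) and Fbln2 (18 and 6 UMIs), of elastic fibres, were among the lower and Fn1, fibronectin, with 0 and 11 UMIs in 1 cell, among the higher. Of the measured basement membrane collagens, Col4a1 had 44 and 40 UMIs (-0.17, -0.82 to 0.48). Col4a2 had 18 and 33 (0.84, -0.03 to 1.76), or a ratio of 1.02 without the mixed cell.

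The mix of members moved with this result. Cells with a strict gene, which held all 259 WT Mgp UMIs, were 20 of 30 in the WT and 14 of 27 in the KO-labelled library. Members with 2 venous genes, the most the rule allows, were 10 of 30 and 4 of 27, and those with none were 12 and 16. Of the cells with Mgp, 10 of 13 and 3 of 6 also carried Selp, the venous gene of P-selectin. The part of this venous difference in the result was not tested beyond the limit of at most 1 venous gene. Within cells with a strict gene, whatever their venous genes, the medians were -1.12 for the arterial list and -1.10 for the elastic list. Mgp had a ratio of -1.15 (-1.49 to -0.81) in them. In all 109 cells of the cluster with most members, the medians were -0.31 and -0.60. Cytl1 was at -1.06 (-1.55 to -0.59) and Mgp at -0.19 (-0.38 to -0.01), and of both lists Cytl1 and Edn1 (-1.08, -1.76 to -0.46) were past 2-fold lower there, where 3.93% of 1425 genes were. AT2-like cells, which should lack it, carried a Mgp UMI in 408 of 3687 WT and 180 of 5670 KO-labelled cells, at 83.9 and 30.4 CPM. The part of Mgp RNA from outside the cells in the result was not tested.

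Genes with at least 100 UMIs were ranked after leaving out some groups, among them genes over 10 times higher in another cell type. The airway gene Scgb1a1, given above and lower still, was left out in this way. Of the genes ranked, Mgp had the lowest ratio, followed by Ghr, Vwf and Vcam1. Vcam1, an adhesion receptor for leukocytes, had 121 UMIs in 13 WT cells and 62 in 7 KO-labelled cells (-0.996, -1.46 to -0.54), with 82 of the WT UMIs in the 2 highest cells. Vwf, the platelet adhesion protein, is a venous gene that the rule limits, so its values are a description; it had 104 UMIs in 17 cells and 52 in 11 (-1.03, -1.54 to -0.54). Ghr, the growth hormone receptor, had 68 UMIs in 20 cells and 33 in 16 (-1.07, -1.72 to -0.45), and 36 against 18 UMIs in the cells with Gja4, Sox17 and Hey1 only. In the 109-cell cluster Vcam1 stood at 0.05, Vwf at -0.48 and Ghr at -0.74, and in cells with at least 2 of the 6 arterial genes Vwf stood at 0.15 and Vcam1 at 0.45. Without the mixed cell Ghr was at -0.90, under 2-fold, and Vcam1 at -1.24 and Sulf1 at -1.24 (-1.95 to -0.57), past it. Next came Sulf1 (-0.95), Lars2 (-0.90), Prkg1 (-0.85), Heg1 (-0.81) and the rule genes Ptprb (-0.70) and Pecam1 (-0.63), all under 2-fold with that cell included.

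Heat shock genes were higher in the KO-labelled library. Of 18 genes 5 were measured, 4 of the 5 were past 2-fold higher and none lower, and the list median was 1.49. Hspa8, the constitutive Hsp70 chaperone, had 29 UMIs in 15 WT cells (highest 5) and 83 UMIs in 19 KO-labelled cells (highest 28), a log2 ratio of 1.49 (0.86 to 2.15). Hsp90ab1, a constitutive Hsp90, had 82 UMIs in 26 cells and 174 in 25 (1.05, 0.67 to 1.45), 70 of them in the mixed cell. Dnaja1, an Hsp40 co-chaperone, had 12 UMIs in 8 cells and 41 in 16 (1.74, 0.79 to 2.80). Hsp90aa1, the inducible Hsp90 (chromosome 12, 110690605 to 110702728, minus strand), had 8 UMIs in 7 cells and 94 in 13 (3.52, 2.49 to 4.78). It was left out of the ranking of genes with at least 100 UMIs, as over 10 times higher in another cell type. The fifth, the small heat shock protein Hspb1, had 34 and 45 UMIs (0.37, -0.30 to 1.06). Hspe1, below the count limit, had 5 and 22 UMIs, and the stress-induced Hspa1a and Hspa1b had 3 and 2 UMIs and 0 and 6 UMIs.

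The mixed cell held much of this signal. Without it 4 genes of the list were measured, with a median of 0.83. Hspa8 was then at 1.12 (0.44 to 1.82), Dnaja1 at 1.36 (0.33 to 2.48) and Hsp90ab1 at 0.53 (0.10 to 0.97), and Hsp90aa1 fell below the count limit at 8 against 20 UMIs (1.51, 0.27 to 2.91). Of the 4 measured then, Hspa8 and Dnaja1 were past 2-fold. With the mixed cell included, the difference also varied with the kind of cell. Hspa8 had 16 and 67 UMIs in cells with a strict gene (2.25, 1.45 to 3.13), 28 of the 67 in the mixed cell. The cells without a strict gene had 13 and 16 UMIs (-0.13, -1.28 to 1.05). In the 109-cell cluster Hspa8 was at 0.96, Dnaja1 at 0.94, Hsp90aa1 at 0.89 and Hsp90ab1 at 0.54. Other endothelial classes had the same sign for Hspa8: 1.30 (1.16 to 1.44) in aerocyte-like, 1.04 (0.91 to 1.18) in general capillary-like and 0.84 (0.63 to 1.06) in venous-like cells. Hsp90ab1 and Dnaja1 were also above 0 in each of these classes. Hsp90aa1 was at 0.72 in venous-like, 0.43 in aerocyte-like and -0.06 (-0.22 to 0.10) in general capillary-like cells. Hspb1 was at 0.54 in aerocyte-like, 0.58 in general capillary-like and -0.03 (-0.35 to 0.28) in venous-like cells.

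**Figure D4:**
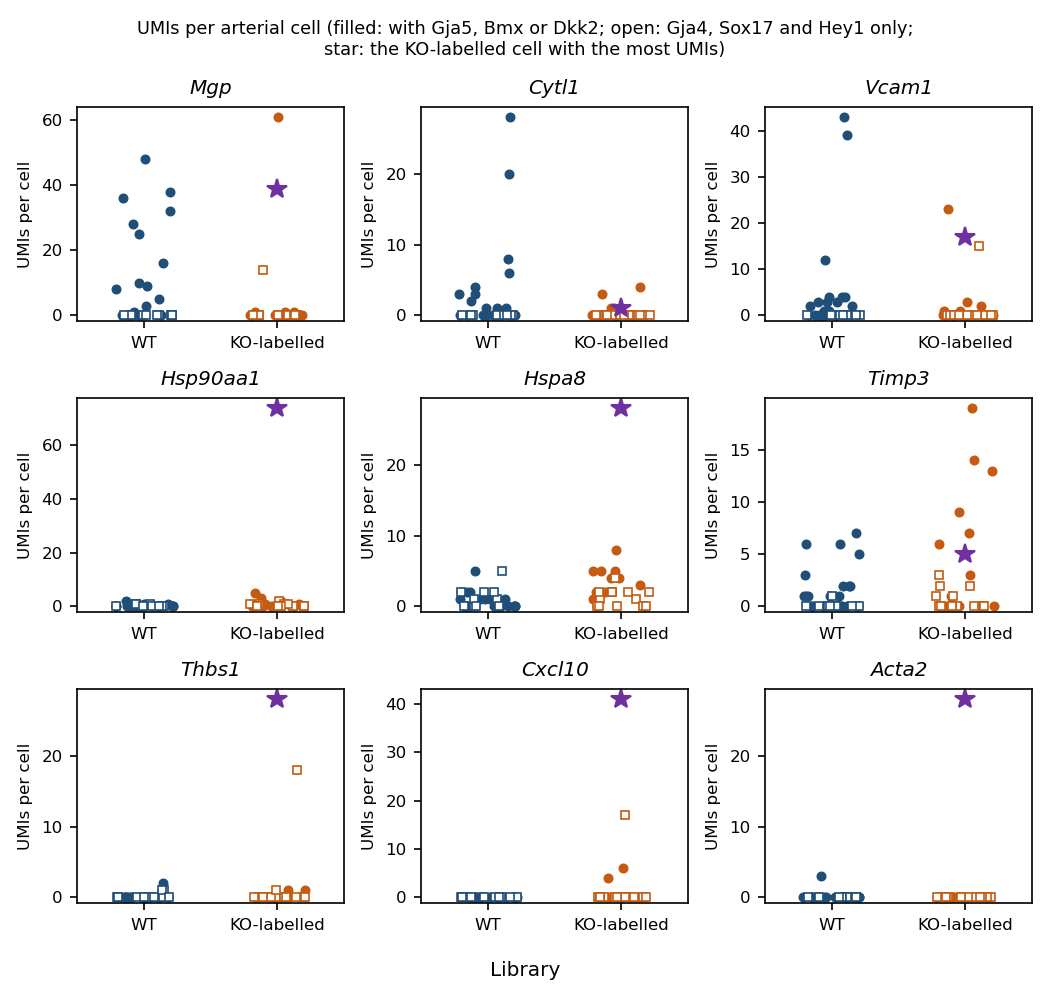
UMIs per arterial-rule cell (vertical axis) of 9 genes in the WT and the KO-labelled library (horizontal axis); filled circles carry Gja5, Bmx or Dkk2, open squares Gja4, Sox17 and Hey1 only, and the star is the KO-labelled cell with 9335 UMIs. The star is the highest cell for Hsp90aa1, Hspa8, Thbs1, Cxcl10 and Acta2, while Timp3 is spread over several KO-labelled cells and Cytl1 over several WT cells.

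Other genes with at least 100 UMIs were also higher in the KO-labelled library, most of them without the mixed cell too. Timp3, a matrix-bound inhibitor of metalloproteinases, had 39 UMIs in 14 WT cells (highest 7) and 86 UMIs in 14 KO-labelled cells (highest 19), a ratio of 1.11 (0.55 to 1.69) and 1.25 without the mixed cell. Tmem100, a target of BMP9 and ALK1 signalling in arterial endothelium, had 55 UMIs in 18 cells and 110 in 24 (0.97, 0.49 to 1.46). It was at 1.19 without the mixed cell, 1.24 (0.78 to 1.69) in the 109-cell cluster and 0.72 (0.63 to 0.81) in general capillary-like cells. Dynll1, a dynein light chain, had 33 and 69 UMIs (1.03, 0.41 to 1.68, and 1.01 without the mixed cell). Hpgd, which breaks down prostaglandins, had 103 and 191 UMIs (0.86, 0.51 to 1.22, and 1.08 without that cell), 52 of the 191 in 1 cell, and Ly6a, the Sca-1 antigen, had 120 and 215 UMIs (0.81, 0.48 to 1.14). Cemip2 (0.88, and 1.03 without it) and Clic4 (0.71) followed. Fth1, the ferritin heavy chain, was the exception: 92 of its 143 KO-labelled UMIs lay in the mixed cell, and its ratio of 0.81 became -0.46 without it.

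Chemokine and adhesion genes did not move as a group. Of 19 genes 6 were measured, with a median of 0.27, 2 past 2-fold higher and 1 lower. Without the mixed cell 4 were measured, with a median of -0.36, 1 past 2-fold higher and 2 lower. Cxcl10, an interferon-induced chemokine, had no UMI in 30 WT cells and 68 UMIs in 4 KO-labelled cells, 41 of them in the mixed cell. Against a floor of 3 UMIs over the WT cells it was 22.2-fold higher, or 10.3-fold with the 27 UMIs in 3 cells that remained without the mixed cell. The lower ends of the intervals were log2 ratios of 4.13 and 2.96. Of those 27 UMIs, 17 lay in the cell of 4715 UMIs. In venous-like cells its ratio was -1.22 and in general capillary-like cells 0.10, so its sign was not shared across endothelium. Sele, E-selectin, had 17 UMIs in 5 cells and 41 in 2, with 33 in 1 cell, and turned to -0.20 without the highest cell of each library. Cd34, a sialomucin, had 25 UMIs in 10 cells and 5 in 4 (-2.35, -4.10 to -0.94), and -0.06 in the 109-cell cluster. Cxcl12 (0.30, -0.12 to 0.73) and Icam1 (15 and 18 UMIs) lay near 0. Ccl2 had 0 and 17 UMIs in 0 and 2 cells.

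The plasminogen system, to which uPAR belongs, showed little. Of 22 genes 6 were measured, with a median of 0.18, 1 past 2-fold higher and none lower. Plat was at 0.21 (-0.40 to 0.82). Urokinase itself (Plau) and Serpine2, a serine protease inhibitor, each had 0 and 1 UMIs, too few to compare. Thbd, thrombomodulin, was at 0.15 (-0.52 to 0.83), the plasminogen-binding pair S100a10 and Anxa2 at -0.14 and 0.79 and the integrin chain Itgb1 at 0.05. Thbs1, thrombospondin 1 (chromosome 2, 118111876 to 118127133, plus strand), had 5 UMIs in 4 cells and 49 in 5 cells (3.26, 1.94 to 4.95). Of those 49, 28 lay in the mixed cell and 18 in the cell of 4715 UMIs, and the 109-cell cluster had 8 and 2 UMIs. Without the mixed cell Thbs1 had 5 and 21 UMIs (2.26, 0.82 to 4.03), under the count limit, and none of the 5 genes then measured was past 2-fold.

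Growth and guidance genes had a median below 0. Of 18 genes 5 were measured, with a median of -0.69 and 1 past 2-fold lower, the orphan receptor Tie1 at 22 and 9 UMIs (-1.32, -2.62 to -0.14). Vegfa was at -0.997 (-1.83 to -0.20), Nrp1, a co-receptor of VEGF and semaphorins, at -0.69 and the angiopoietin receptor Tek at -0.56, while Flt1 was at 0.33. In the 109-cell cluster the list median was -0.13. Notch genes were sparse. Of 15 genes 2 had 30 UMIs: Notch1, the receptor, with 26 and 26 UMIs (-0.03, -0.87 to 0.81) and Efnb2 with 59 and 33 (-0.87, -1.53 to -0.23). The arterial ligand Dll4 had 5 UMIs in 4 cells and 15 in 11, Notch4 had 9 and 7, Jag1 had 6 and 11 and the target Hey2 had 5 and 1. Hey1 and Gja5 were part of the rule and are not read here.

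The other lists had medians from -0.05 to 0.36. Without the mixed cell Gata2, a transcription factor, at 1.12 (0.01 to 2.32) and Tmem100 at 1.19 came past 2-fold higher in the transcription factor list and the BMP list. Endothelial transcription factors had 8 of 15 measured, a median of -0.05 and none past 2-fold, with Epas1, the hypoxia-inducible factor HIF-2alpha, at -0.06 (-0.42 to 0.29) and flow-induced Klf2 and Klf4 at 0.33 and -0.03. Vasomotor and flow genes had 9 of 24 measured, a median of 0.11 and none past 2-fold, with endothelin (Edn1) at -0.97 (-2.11 to 0.10), its converting enzyme Ece1 at -0.82 (-1.53 to -0.13) and the water channel Aqp1 at 0.75. BMP and TGF-beta genes had 9 of 17 measured, a median of 0.12 and none past 2-fold, with the pulmonary hypertension gene Bmpr2 at -0.17 (-0.57 to 0.23) and Acvrl1 at 0.30. Junction genes had 7 of 15 measured, a median of 0.13 and none past 2-fold. Immediate early genes had 8 of 16 measured, a median of 0.36 and 1 past 2-fold higher, Klf6 (1.38, 0.23 to 2.67), with Jun at 0.14 and Fos at -0.87.

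Interferon and MHC class I genes had 9 of 20 measured, a median of 0.21 and 1 past 2-fold higher, the GTPase Gbp2 at 12 and 32 UMIs (1.38, 0.39 to 2.48). Iigp1 was at 0.64, Ifitm3 at 0.34 and the class I chain H2-D1 at 0.08. ER chaperones had 7 of 16 measured, a median of 0.29 and none past 2-fold, with Hspa5 at 0.29 and Hsp90b1 at 0.01. NF-kappaB genes had 3 of 13 measured (Vcam1, Nfkbia and Icam1), the glucocorticoid and clock list 2 of 21 and the cholesterol synthesis list 0 of 19, so these lists gave no value.

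**Figure D5:**
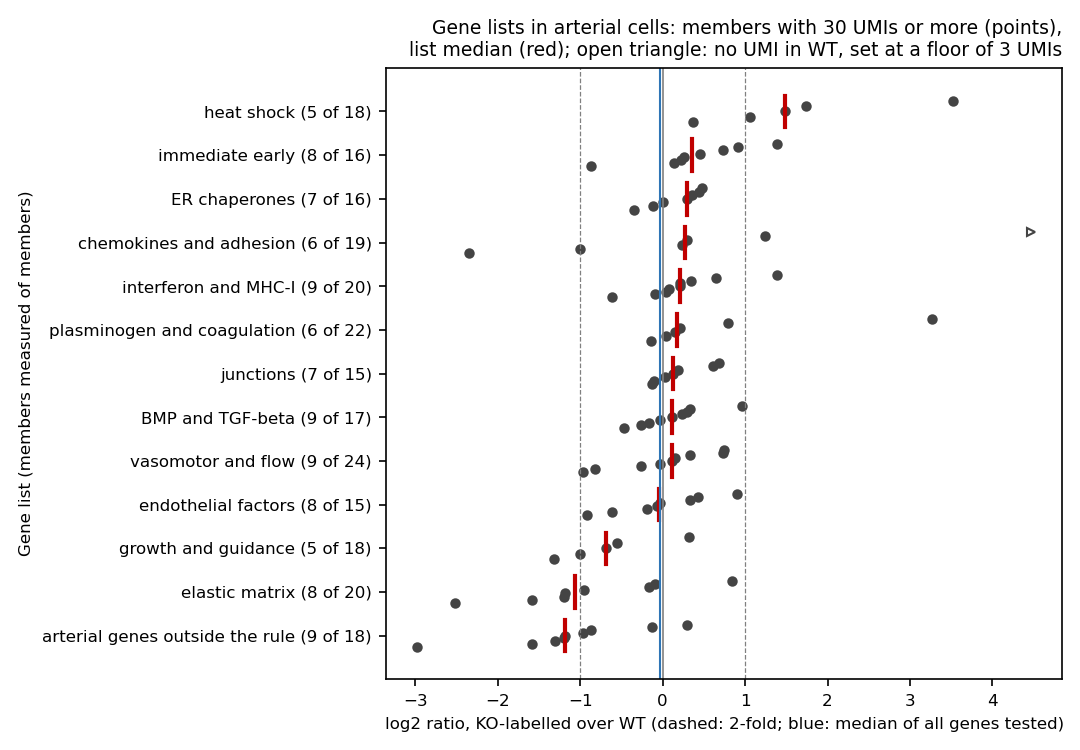
Log2 ratio of the KO-labelled over the WT library (horizontal axis) for members of 13 gene lists with 30 UMIs or more (points; vertical axis, list with members measured of members), the list median in red, 2-fold as dashed lines and the median of all 786 genes in blue. Heat shock genes lie to the right at a median of 1.49 and the overlapping elastic matrix and arterial lists to the left at -1.06 and -1.18.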

How the data were processed

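Droplet 3' RNA sequencing gave 2 libraries of CD45.2-negative lung cells, 1 per genotype. The authors deposited unnormalized counts of UMIs for every gene in every barcode, made with Cell Ranger (7.0.0 and 7.1.0) on mm10, per the submitters' processing notes. How barcodes were called is not given in the sources used here.

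The rule was applied to each barcode. Members and gene lists were chosen with earlier results of these data known, so no list is independent evidence. UMIs were summed per library and class. Ratios have exact conditional binomial intervals, CPM exact Poisson and shares exact Clopper-Pearson intervals. A gene without a UMI in 1 library was set at a floor of 3 UMIs. Comparison classes were cut by marker rules of the same form. Shares were thinned to 700 UMIs per cell, and an alternative thinned cells to 2000. Scrublet (scanpy 1.11.5, expected share 8%) marked 617 and 175 cells and removed none here. Endothelial cells were clustered on 2000 variable genes, 30 components and 15 neighbours at Leiden resolution 1 (leidenalg 0.10.2).

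Named genes were the rule and pan-endothelial genes, Plaur, the 4 highest and 4 lowest and every member past 2-fold of each list, the 10 highest and 10 lowest of genes with at least 100 UMIs, and the 15 leading genes over other endothelial classes. Acta2, Tagln and Tubb4b and members of lists under 30 UMIs were named after their values were seen. Positions are from GENCODE M21 (GRCm38), which held 32158 of 32285 gene identifiers. The procedure was tested on simulated Poisson counts summed per library, with no spread between cells or mice. That test cannot show how the intervals behave where 1 cell holds much of a gene. Alternatives changed the rule's limits, the minimum of UMIs per gene, the scaling, the thinning and the cells kept, including 1 cell with markers of other types.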

Additional observations from a re-analysis of the deposited data

How the results depend on the processing

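The libraries hold 57 arterial-rule cells, so depth limits every comparison to genes with at least 30 UMIs, and no paired analysis was possible because each genotype had 1 library. Of 286 alternatives to the summary values, 236 stayed within their bounds, 48 moved and 2 reversed. The bounds were the 95% counting interval of a share or level, 1.5 times for a count of genes and, for a list median, a wide range of the list's own members. Over these alternatives the arterial list median ran from -1.58 to 0.0931, the elastic list from -1.38 to 0.48 and the heat shock list from 0.63 to 2.23. Of 1463 alternatives for single genes, 1321 stayed, 137 moved and 5 reversed. TMM factors (edgeR 4.0.16) shifted every ratio by -0.01. None of 13 endothelial clusters was made up mostly of members, so membership by cluster gave no value, and removing Scrublet doublets removed no member. Thinning to 700 UMIs, the cluster with most members, the division by strict genes and leaving out the highest cell were chosen after seeing the data. The cause of each move was not tested unless the alternative itself has fewer cells or genes.

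The share of endothelial cells (WT, KO-labelled) was 0.0900% and 0.143% with 4 of 6 arterial markers, 10.9% and 12.9% with 2 of 6, 2.004% and 3.06% among cells of 1000 genes or more and 10% mitochondrial UMIs or fewer, 0.140% and 0.293% after thinning to 700 UMIs, 0.900% and 1% for cells with Gja5, Bmx or Dkk2, and 0.450% and 0.929% for cells with Gja4, Sox17 and Hey1 only. In the WT library it was 0.900% with at most 1 venous marker and 3.15% for the cluster with most members.

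Genes past 2-fold higher and lower were 1 and 1 with 4 of 6 markers, 75 and 104 with 2 of 6, 23 and 18 with at most 1 venous marker, 22 and 21 with no gene of other cell types, 84 and 80 at 20 UMIs per gene, 6 and 4 at 100 UMIs, 22 and 9 after thinning to 2000 UMIs, 8 and 6 after thinning to 700 and 12 and 8 in cells with Gja4, Sox17 and Hey1 only. The last pair was 5.66% and 3.77% of 212 genes tested. The number of genes tested changes with the cells and the UMI minimum, so these counts cannot be compared as shares.

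With 2 of 6 markers the arterial list median reversed to 0.0931, with Ltbp4 at 0.0531, Clu at 0.0931, Mgp at 0.0486 and Vwf at 0.15. With at most 1 venous marker the elastic list median reversed to 0.48. Sele reversed to -0.20 without its highest cells. The ER chaperone median was 0.57 with 2 of 6 markers and 0.58 in the cluster, and the BMP and TGF-beta median 0.34 after thinning to 2000 UMIs and -0.34 in cells with Gja4, Sox17 and Hey1 only.

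Plat CPM in WT cells was 232 with 4 of 6 markers, 157 with 2 of 6, 279 with at most 1 venous marker, 441 with at least 1000 genes, 364 after thinning to 2000 UMIs, 991 with Gja5, Bmx or Dkk2 and 0 with Gja4, Sox17 and Hey1 only. In KO-labelled cells it was 262 with 2 of 6, 472 with at most 1 venous marker, 1201 with Gja5, Bmx or Dkk2, 193 with Gja4, Sox17 and Hey1 only and 476 without its highest cell.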

Other observations

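Some genes outside every list, chosen after their values were seen, also differed between the libraries in arterial-rule cells, each with few carrying cells. Apoe, an apolipoprotein, had 59 UMIs in 10 WT cells, 36 of them in 1, and 16 in 3 KO-labelled cells. The interferon-induced GTPases Gbp5 and Gbp6 had 8 and 7 UMIs in the WT library and 35 and 30 in the KO-labelled library. Of the 35 Gbp5 UMIs, 20 lay in the KO-labelled cell of 4715 UMIs. Adamts9, a secreted metalloproteinase, had 7 UMIs in 6 cells and 36 in 9 cells (log2 ratio 2.33, 1.14 to 3.74), and its ratio was 0.72 (0.52 to 0.92) in general capillary-like and -0.38 (-0.93 to 0.16) in venous-like cells. Gsn, an actin-severing protein abundant in mesenchymal cells, had 1 UMI in 1 cell and 46 in 3. Of these 46, 36 lay in the cell of 4715 UMIs.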
